A study of Mus musculus with 2 samples.

Results

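Connective tissue mast cells of inflamed mouse ear skin were taken as the 130 barcodes, of 8359 kept, in which reads of the granule proteases Cma1, Tpsb2 and Mcpt4 together reached 3000 CPM (counts of a gene per 1000000 reads of that barcode). A kept barcode had 20% or fewer mitochondrial reads and at least 200 genes. Of 151 kept barcodes at the protease limit, 15 were left out because the basophil protease Mcpt8 was at 500 CPM or more and 6 because the collagen gene Col1a1 was at 3000 CPM or more. The rule thus used the 3 proteases, Mcpt8 and Col1a1, so the levels of these genes describe the members and support nothing further. The members made up 1.56% of kept barcodes.

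The cells came from the skin of male BALB/c mice aged 7 to 12 weeks in a model of IgE-mediated chronic allergic inflammation (IgE-CAI). All mice, wild-type (WT) and Ccr2-/- alike, were sensitized intravenously with 300 µg of anti-TNP IgE (TNP is a hapten) and challenged in the ear with 10 µg of intradermal TNP-coupled ovalbumin, and ears were taken 3 or 5 days later. The Ccr2-/- mice lacked the chemokine receptor CCR2 in every cell from birth (allele Ccr2 tm1Mae on BALB/c), so no cell type was targeted. Each genotype and day gave 1 pool of cells, stained with its own hashtag antibody, and the sources used here do not give the number of mice in a pool. The 4 pools were mixed and made into 1 cDNA library and 1 hashtag library. Of the 8953 barcodes of the cDNA library, 8696 were also in the hashtag library. Of the 130 members, 118 carried the hashtag of 1 pool: 11 from WT day 3, 9 from WT day 5, 57 from Ccr2-/- day 3 and 41 from Ccr2-/- day 5. No uninflamed ear was analysed here.

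Mast cells are resident cells of haematopoietic origin that hold IgE on the receptor FcεRI, a complex of the chains encoded by Fcer1a, Ms4a2 and Fcer1g. When antigen cross-links this IgE, the cells empty granules of histamine, serotonin, proteases and the proteoglycan serglycin, and then make lipid mediators, cytokines and chemokines. The connective tissue type, found in skin, is known for the chymases Mcpt4 and Cma1, the tryptase Tpsb2 and carboxypeptidase A3 (Cpa3). The mucosal type is known for Mcpt1 and Mcpt2. Both depend on the receptor KIT and on the transcription factors GATA2 and MITF, and the skin type carries Mrgprb2, a receptor through which cationic substances degranulate it without IgE.

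Promoters of some genes that were high in these cells are shown first. Each one shown holds the letters marked in it, so they do not stand for all genes high in the members. The GATA letters are those that GATA2 and GATA1, both read in the members, are known to bind. Binding was not tested. The sequences are RefSeq's for GRCm38.p6, from 250 bases before to 50 bases after the annotated start, written 5′ to 3′ along the gene. Capitals mark AGATAA or its reverse complement TTATCT in the first 4 genes, and TGACTCA or its reverse complement TGAGTCA, the letters of the AP-1 motif, in both Mrgprb genes.
Cpa3, chr3:20242132-20242431, minus strand: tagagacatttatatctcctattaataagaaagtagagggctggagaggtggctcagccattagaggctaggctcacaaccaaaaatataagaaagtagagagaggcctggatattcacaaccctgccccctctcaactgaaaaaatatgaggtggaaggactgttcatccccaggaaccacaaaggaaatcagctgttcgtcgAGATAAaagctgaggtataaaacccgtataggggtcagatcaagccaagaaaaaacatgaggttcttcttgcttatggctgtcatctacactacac
Ms4a2, chr19:11623670-11623969, minus strand: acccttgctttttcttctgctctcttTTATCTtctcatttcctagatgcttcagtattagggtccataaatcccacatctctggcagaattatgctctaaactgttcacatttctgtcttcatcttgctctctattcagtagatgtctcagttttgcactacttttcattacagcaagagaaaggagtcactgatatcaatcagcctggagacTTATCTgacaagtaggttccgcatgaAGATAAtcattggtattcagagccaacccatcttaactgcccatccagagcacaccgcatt
Fcer1a, chr1:173227180-173227479, minus strand: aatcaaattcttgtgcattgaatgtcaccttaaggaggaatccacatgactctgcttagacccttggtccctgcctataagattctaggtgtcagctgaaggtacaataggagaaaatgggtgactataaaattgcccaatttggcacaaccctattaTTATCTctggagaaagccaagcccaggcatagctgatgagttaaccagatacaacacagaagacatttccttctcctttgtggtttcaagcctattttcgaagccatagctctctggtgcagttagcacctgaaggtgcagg
Slc18a2, chr19:59260628-59260927, plus strand: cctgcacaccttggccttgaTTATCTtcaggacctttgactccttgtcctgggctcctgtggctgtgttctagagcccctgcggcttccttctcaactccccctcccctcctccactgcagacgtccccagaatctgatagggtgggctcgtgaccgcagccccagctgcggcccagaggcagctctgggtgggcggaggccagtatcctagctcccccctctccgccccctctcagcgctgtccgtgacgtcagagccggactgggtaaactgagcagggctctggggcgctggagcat
Mrgprb1, chr7:48456293-48456592, minus strand: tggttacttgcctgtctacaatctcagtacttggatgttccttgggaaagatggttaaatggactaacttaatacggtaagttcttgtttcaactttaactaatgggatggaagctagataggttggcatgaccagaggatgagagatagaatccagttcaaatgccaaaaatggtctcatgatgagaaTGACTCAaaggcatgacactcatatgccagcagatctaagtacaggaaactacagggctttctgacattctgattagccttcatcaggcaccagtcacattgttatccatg
Mrgprb2, chr7:48558037-48558336, minus strand: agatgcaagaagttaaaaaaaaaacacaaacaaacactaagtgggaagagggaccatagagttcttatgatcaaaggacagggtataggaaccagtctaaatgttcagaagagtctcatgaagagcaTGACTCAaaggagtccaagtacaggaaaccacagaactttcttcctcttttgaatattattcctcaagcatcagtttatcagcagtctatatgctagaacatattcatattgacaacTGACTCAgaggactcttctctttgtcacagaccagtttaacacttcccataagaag

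Counted from the start that each window uses, the GATA letters stood 46 bases before Cpa3 and 92 before Fcer1a. They stood 230 before the amine transporter gene Slc18a2, and 224, 37 and 11 before Ms4a2. The RefSeq gene spans of Ms4a2 and Cpa3 begin further upstream, at 11623790 and 20242209 on the minus strand. The Ms4a2 matches at 37 and 11 bases therefore lie within its annotated span. The AP-1 letters stood 61 bases before the start of Mrgprb1, and 123 and 6 before Mrgprb2. Of the rule proteases Cma1, Tpsb2 and Mcpt4 and the genes highest in the members, described further on, 21 had a promoter entry. On either strand, 7 of the 21 (Adora3, Cpa3, Fcer1a, Ms4a2, Rgs13, Slc18a2 and Tal1) held the GATA letters, beside 11.2% of all 32851 promoters of this length and 12.7% of 27025 genes. For AP-1 the count was 3 of 21 (Adora3, Mrgprb1 and Mrgprb2), beside 5.95% of genes, and for the E-box CACGTG, which MITF is known to bind, 0 of 21 beside 8.09% of genes. These matches describe letters in a window. Tpsb2 and Tpsab1 had no entry.

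The targeted gene was checked first. In all other cells of a pool Ccr2 stood at 359 CPM at WT day 3, 352 at WT day 5, 13.7 at Ccr2-/- day 3 and 11.9 at Ccr2-/- day 5, so both WT pools were above both Ccr2-/- pools. In the mast cells themselves Ccr2 gave 0, 2, 12 and 5 reads in the same order. At this depth Ccr2 was thus near the limit of detection in mast cells of either genotype.

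The label was checked against 6 markers: Cma1, Tpsb2, Mcpt4, Kit, Mrgprb1 and Cpa3. Reads of all 6 were present in 80 of the 130 members, of 5 in 22, of 4 in 8 and of 3 in 5. The other 15 members had reads of only 1 or 2 markers and go against the label: none had a read of Kit or Mrgprb1, and 1 had a read of Cpa3. In 11 of these 15, Cma1 was the only one of the 3 rule proteases with a read, at 19 to 176 reads per cell, so the call did not rest on single reads.

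Most of these 15 cells had reads of genes known from cytotoxic lymphocytes. Granzyme A (Gzma) was read in 10 of the 15, at 24690 CPM over their summed reads, against 18.2 CPM in the 115 members with at least 3 markers. The granule protein Nkg7 was read in 9 of 15 at 1767 CPM against 17.8, the IL-2 receptor chain Il2rb in 9 at 1616 CPM against 6.85, and perforin (Prf1) in 8 at 1029 CPM against 0.783. Gzma, Nkg7 and Prf1 were all read in 7 of the 15 and in 0 of the 115. The natural killer cell receptor Ncr1 was read in 3 of the 15 and in 1 of the 115. The T cell receptor component Cd3e was read in 0 of the 15 but in 15 of the 115, at 30.6 CPM. Granzyme B (Gzmb) was read in 11 of the 15 at 7648 CPM and in 28 of the 115 at 606 CPM, so not all such genes were confined to the 15. By pool the 15 cells fell as 1 in WT day 3, 0 in WT day 5, 5 in Ccr2-/- day 3 and 7 in Ccr2-/- day 5, with 2 in no pool. They were shallow, with a median of 6118 reads against 39360. Outside the members, 189 kept cells had over 200 CPM of Cma1, and 114 of them (60.3%) had a read of Nkg7, against 8.60% of all kept cells. Because these cells go against the label, results that could rest on them are given with and without them, and the 115 cells are called marker-positive mast cells.

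**Figure D1:**
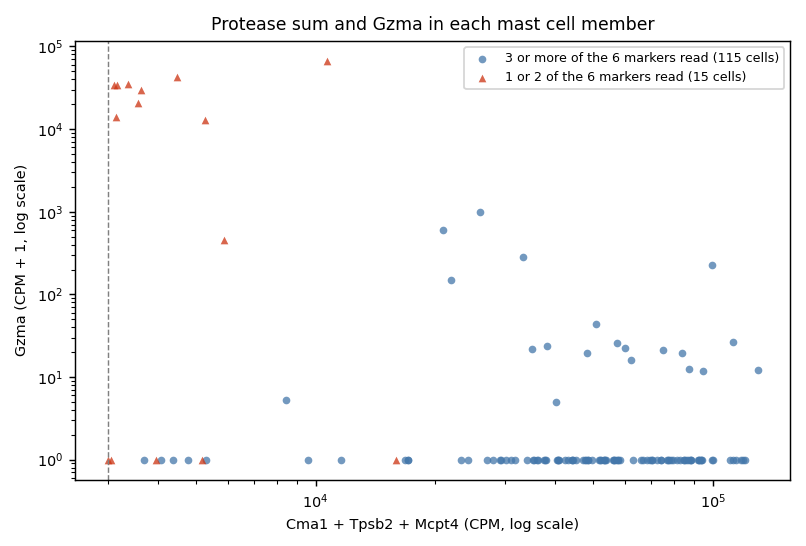
Each point is 1 of the 130 members, by the summed CPM of Cma1, Tpsb2 and Mcpt4 (x axis, log scale, dashed line at the limit of 3000 CPM) and by Gzma CPM with 1 added (y axis, log scale). Triangles are the 15 members with reads of 1 or 2 markers, of which 10 had Gzma reads and most lie near the limit, and circles are the 115 marker-positive mast cells.

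The limit passed through thinly filled ground. The 5 members just inside it had protease sums of 3000.3, 3049, 3106, 3148 and 3168 CPM, and the 5 cells just outside had 2607, 2594, 2532, 2269 and 2200 CPM. All 10 had reads of 1 or 2 markers only, and Gzma was at 1588 CPM or more in 7 of them. Over all members the sum ran from 3000.3 to 130005 CPM with a median of 48495 (quartiles 28306 and 77225). Between 3000 and 10000 CPM lay 20 members, 13 of them with fewer than 3 markers. Between 10000 and 30000 CPM lay 15, of which 2 had fewer than 3, and all 95 members above 30000 CPM had at least 3.

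Over all pools together the members were sequenced about as deeply as kept cells, with 3287 to 252700 reads per cell. The median was 34045 reads (32594 for kept cells) and 3061 genes (2773). Within pools the depths differed. Median mast cell reads were 23047 at WT day 3, 38976 at WT day 5, 39960 at Ccr2-/- day 3 and 31721 at Ccr2-/- day 5. Kept cells had 39778, 48232, 34410 and 18632 in that order. Counts of cells with a read are given per pool without thinning, so depth enters them. Summed over cells, the mast cells gave 293809 reads at WT day 3, 371273 at WT day 5, 2576198 at Ccr2-/- day 3 and 1796030 at Ccr2-/- day 5. The limit that a count of 0 allows (3 reads of the pool's total) was therefore 10.2, 8.08, 1.16 and 1.67 CPM. The deepest single cell held 22.5%, 24.4%, 9.03% and 14.1% of its pool's mast cell reads, so the WT values rest on few cells. Reads are not molecules, and all intervals cover counting error only.

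All 6 markers were high in all 4 pools. The chymase Cma1 stood at 20353 CPM at WT day 3, 37194 at WT day 5, 21194 at Ccr2-/- day 3 and 24973 at Ccr2-/- day 5. The chymase Mcpt4 stood at 32613, 38756, 26293 and 21152 CPM in the same order, and the tryptase Tpsb2 at 7001, 18846, 6179 and 8116. WT day 5 was the highest pool for all 3. Among the markers that the rule did not use, Cpa3, the carboxypeptidase stored with the chymases, stood at 12985, 17925, 8455 and 13324 CPM. Kit, the receptor for stem cell factor, stood at 749, 773, 441 and 605 CPM. The receptor gene Mrgprb1 stood at 2832, 2214, 1201 and 1254 CPM. For Kit and Mrgprb1 both WT pools were above both Ccr2-/- pools, and for Cpa3 the genotypes overlapped. The adjusted p in edgeR's quasi-likelihood test over the 4 pools, described below, was 0.91 for Kit, 0.12 for Mrgprb1 and 0.79 for Cpa3, so none of them passed.

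Detection was compared at a fixed depth, with cells of 10000 reads or more thinned to that number (102 of 115 marker-positive mast cells, 105 of 123 basophils and 966 of 1045 fibroblasts). The basophil set had Mcpt8 at 3000 CPM or more and the fibroblast set Col1a1 at 3000 CPM or more with a Pdgfra read and no Ptprc read, and both were below the protease limit. Median depths were 39360, 19296 and 64660 reads. Kit was read in 69.6% of mast cells, 0% of basophils and 0.518% of fibroblasts at the fixed depth (unthinned 76.5%, 0% and 2.20%). Mrgprb1 was read in 92.2%, 2.86% and 0.414% (91.3%, 3.25% and 3.92%). Cpa3 was read in 97.1%, 67.6% and 2.28% (96.5%, 68.3% and 15.7%), so basophils shared Cpa3 but not Kit. Fibroblasts, which should lack these genes, mark the background. The pan-leukocyte gene Ptprc (CD45) was read in 56.9% of mast cells and 69.5% of basophils.

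Genes of the mucosal mast cell type were read in few cells. Over the 4 pools Mcpt1 stood at 0.596 CPM, Mcpt2 at 7.35 and the mucosal integrin chain Itgae at 0.596. Reads of Mcpt1 were found in 3 of the 118 cells, of Mcpt2 in 5 and of Itgae in 3. Of the 37 Mcpt2 reads, 36 were at Ccr2-/- day 5 (20.04 CPM, above the floor of 1.67 CPM that 3 reads give there), with 66.7% of them in 1 cell. The highest marker-positive cell, at 5981 CPM, was in no pool, so its reads are not among the 37. That cell was shallow, with 3511 reads in all. Integrin β7 (Itgb7), its partner chain, was read in 41 cells, at 204, 310, 94.7 and 80.7 CPM in the pools (WT day 3 and 5, then Ccr2-/- day 3 and 5).

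The granule proteases lie in gene clusters. On chromosome 14 of GRCm38.p6 (RefSeq), Cma1 (55941451 to 55944675), Cma2 (55950980 to 55989785), Mcpt1 (56017964 to 56020391), Mcpt9 (56026864 to 56030495), Mcpt2 (56021584 to 56044635), Mcpt4 (56059744 to 56062310), Mcpt8 (56082163 to 56085499), cathepsin G (Ctsg, 56099885 to 56102574) and granzyme B (Gzmb, 56258836 to 56262334) are neighbours. Mast cell reads were unevenly spread over this cluster: Cma1 and Mcpt4 were read in 97.5% and 89.8% of the 118 cells, Cma2 in 47.5%, Mcpt8 in 26.3% and Mcpt1 in 2.54%. Cma2 stood at 109, 248, 92.4 and 84.1 CPM in the 4 pools, against 0.0561 to 0.517 CPM in all other cells of a pool. In basophils Mcpt8 stood at 11838 CPM against 51.4 in mast cells, where the rule held it below 500 CPM per cell.

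The tryptase cluster lies on chromosome 17, with Prss34 (25298394 to 25300168), Tpsab1 (25343245 to 25345562), Tpsb2 (25366308 to 25368096) and Tpsg1 (25369195 to 25374442). Tpsab1 stood at 11501, 26595, 19702 and 17114 CPM and Tpsg1 at 221, 102, 38.0 and 49.0, while the basophil protease Prss34 was at 0.596 CPM over the pools. Tpsab1 and Tpsb2 are related genes, and whether the alignment split reads between them was not tested. RefSeq annotates Tpsab1 of the reference strain C57BL/6J as a transcribed pseudogene, whereas these mice were BALB/c. The division of reads between both tryptases is therefore uncertain.

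Genes outside the rule that stood highest in mast cells against all other kept cells were ranked by the lowest of the 4 pools' log2 ratios, among genes of at least 50 CPM in mast cells of every pool. The ranking is a description with no test, since the members were chosen on expression. After Tpsab1 (lowest log2 ratio 9.43), Mrgprb1 (7.90) and Cpa3 (7.49) came the serotonin transporter Slc6a4 (7.42), the FcεRI α chain Fcer1a (6.93), the serotonin-forming tryptophan hydroxylase Tph1 (6.91), the FcεRI β chain Ms4a2 (6.64) and the vesicular monoamine transporter Slc18a2 (6.52). The next were the G protein regulator Rgs13 (6.49), the steroid side-chain cleavage enzyme Cyp11a1 (6.41), Kit (6.33), Cma2 (6.24) and the granule exocytosis GTPase Rab27b (6.22).

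Further down stood the potassium channel subunit Kcne3 (6.01), Sdsl (5.87), Mrgprb2 (5.81), the transcription factor Tal1 (5.64), the G protein α subunit Gnaz (5.57), the protease inhibitor Serpinb1a (5.53), the transcription factor Myb (5.52) and Gchfr (5.37), which regulates synthesis of the hydroxylase cofactor tetrahydrobiopterin. Gata2 (5.34), the adenosine A3 receptor Adora3 (5.16) and Rprm (5.07) followed, and 1 unnamed gene model was among the 25. Several of these were shared with basophils. Cyp11a1 stood at 1729 CPM in mast cells and 1721 in basophils, Gata2 at 1036 and 1606, and Ms4a2 at 1174 and 831. By contrast Kit, Tph1, Cma2 and Mrgprb2 had 0 reads in the basophils of the pools, against 542, 2310, 102 and 157 CPM in mast cells.

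**Figure D2:**
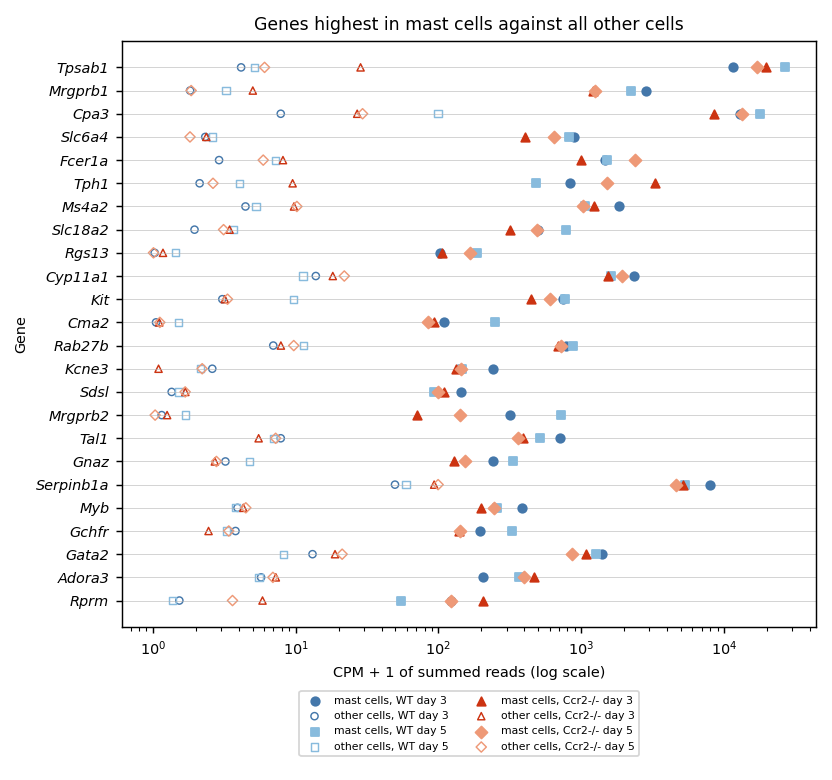
For 24 of the 25 genes highest in mast cells against all other kept cells, filled markers give the CPM + 1 of summed mast cell reads in each of the 4 pools and open markers that of all other cells of the same pool (x axis, log scale). In each row all filled markers lie to the right of all open ones, as the ranking requires.

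Mast cells made up 0.713% of kept cells at WT day 3 (11 of 1543, exact Clopper-Pearson 95% interval 0.356 to 1.27%) and 0.868% at WT day 5 (9 of 1037, 0.398 to 1.64%). In Ccr2-/- skin they made up 2.60% at day 3 (57 of 2191, 1.98 to 3.36%) and 1.75% at day 5 (41 of 2347, 1.26 to 2.36%). Both Ccr2-/- pools were thus above both WT pools, by 3.65 times at day 3 and 2.01 times at day 5. The genotype means were 2.17% and 0.790%, a difference of 1.38 percentage points. Permuting the 4 pools in an exact two-sided test gave p = 0.33, and no lower p can be had from 2 pools against 2. Within a day there was no test.

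Without the 15 marker-poor cells the shares were 0.648%, 0.868%, 2.37% and 1.45%, with ratios of 3.66 at day 3 and 1.67 at day 5 and the same p of 0.33 (exact permutation). Day 5 minus day 3 was −0.350 points, with p = 1 in the same exact permutation test, which could not have shown a difference at this size. A share also rises where other cells of the pool are fewer, and within a day genotype and pool cannot be told apart. The basophil set took 1.04% of kept cells at WT day 3, 0 of 1037 cells at WT day 5 (exact upper limit 0.355%, or 0.289% counted as 3 cells), 2.28% at Ccr2-/- day 3 and 1.75% at Ccr2-/- day 5.

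**Figure D3:**
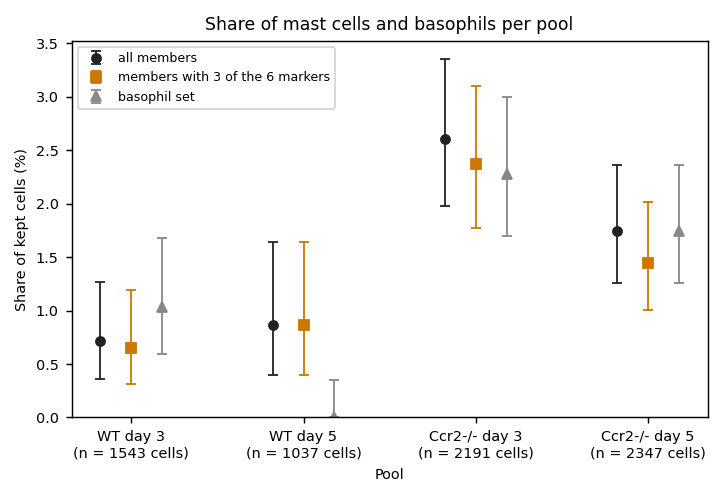
The share of kept cells (y axis, %) in each of the 4 pools (x axis) for all mast cell members, for marker-positive mast cells and for the basophil set, with exact Clopper-Pearson 95% intervals that cover counting error only. Mast cells lie below 0.9% in both WT pools and above 1.7% in both Ccr2-/- pools, and marker-positive mast cells above 1.4%.

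The question of what the loss of CCR2 changed in these cells was put to reads summed per pool. Of 9212 genes tested by edgeR's quasi-likelihood test with day in the model, which left 1 residual degree of freedom, 34 passed an adjusted p of 0.05 (0.369% of genes tested). Of these, 25 were higher (0.271%) and 9 lower (0.0977%) in Ccr2-/- mast cells, and 512 genes had an unadjusted p under 0.05. Among marker-positive mast cells alone, 6 of 8983 genes passed (0.0668%), all 6 higher in Ccr2-/-: Serpina3g, Igfbp5, Penk, Cck, Tph1 and Mt2. Of the 34, 30 could be tested there and all 30 kept their sign. This adds no support, because the marker-positive cells are 105 of the same 118 cells. In all, 5 of the 34 (Serpina3g, Cck, AW112010, Cd52 and Alox5) had 0 WT reads, so they passed the filter on low counts through the Ccr2-/- pools alone. They count among the 34, but no p is given for them as support, and their folds are lower bounds. Gzma and Icos also stood below the floor of 3 reads in both WT pools, so no p is given for them as support either. The counts moved with the pools used: 3 genes passed without WT day 3, 0 without WT day 5 (2666 at an unadjusted p under 0.05), 21 without Ccr2-/- day 3 and 19 without Ccr2-/- day 5. In each of these fits 1 group had a single pool, assumed to vary like the others. The median log2 fold change of all genes tested was 0.39, and changes are to be read against it.

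Serpina3g, a serine protease inhibitor, was read in 0 of 20 WT mast cells and in 25 of 57 and 15 of 41 Ccr2-/- mast cells. Its level was 0 CPM at both WT days, 720 at Ccr2-/- day 3 and 940 at Ccr2-/- day 5. Against the floor of 3 reads per pool this was at least 70.5-fold higher at day 3 and at least 116-fold higher at day 5, and the call was lost with DESeq2 (adjusted p = 0.42). In all other cells Serpina3g stood at 33.9 and 14.5 CPM in WT and at 118 and 91.4 CPM in Ccr2-/-, so these moved the same way.

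Igfbp5, an insulin-like growth factor binding protein, stood at 13.6 CPM at WT day 3, 24.2 at WT day 5, 614 at Ccr2-/- day 3 and 2473 at Ccr2-/- day 5. The Ccr2-/- pools were 45.1 and 102 times higher at days 3 and 5 (log2 fold change 6.18, SE 0.47, adjusted p = 3.7e-21 by edgeR, 1.0e-04 in marker-positive cells). At Ccr2-/- day 5, 1 cell held 62.0% of the reads. All other cells stood at 756, 708, 982 and 777 CPM, so they moved the same way without overlap. Other cells of WT skin also had a higher CPM of Igfbp5 than WT mast cells.

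The neuropeptide precursor gene Penk (proenkephalin) stood at 61.3, 0, 1428 and 365 CPM in the 4 pools (log2 fold change 5.47, SE 0.54, edgeR adjusted p = 1.6e-14, 0.012 in marker-positive cells). The precursor gene Cck (cholecystokinin) stood at 0 in both WT pools, 182 CPM at Ccr2-/- day 3 and 286 at Ccr2-/- day 5, at least 17.8-fold and at least 35.3-fold higher, and its call was lost with DESeq2 (adjusted p = 0.67) and with limma on the mean CPM over cells (adjusted p = 0.089). Both were read in a minority of the cells. Penk reads were found in 18 of 57 and 10 of 41 Ccr2-/- cells and Cck reads in 9 and 7, and at Ccr2-/- day 5 a single cell held 77.1% of Penk and 54.0% of Cck reads. In all other cells Penk was at 40.7 to 67.1 CPM and Cck at 0.487 to 3.46 CPM.

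Tph1, the hydroxylase that commits tryptophan to serotonin, was read in most mast cells of each pool. It stood at 827 CPM at WT day 3, 485 at WT day 5, 3299 at Ccr2-/- day 3 and 1509 at Ccr2-/- day 5, 3.99 times higher at day 3 and 3.11 times higher at day 5 (log2 fold change 1.82, SE 0.31, edgeR adjusted p = 3.2e-05, 0.045 in marker-positive cells). It was read in 8 of 11, 5 of 9, 51 of 57 and 30 of 41 cells, and was at most 8.54 CPM in all other cells of any pool. Of 8 genes of amine synthesis and storage, 7 were tested and Tph1 was the only one called, with a list median of −0.22 against 0.39 for all genes. Histidine decarboxylase (Hdc), which makes histamine, stood at 2474, 1702, 3345 and 2344 CPM and overlapped between genotypes (adjusted p = 0.88). Slc6a4 stood at 885, 824, 405 and 646 CPM and Slc18a2 at 500, 781, 317 and 490 (adjusted p of 0.86 and 0.87).

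Lilrb4a, an inhibitory receptor with ITIM motifs, stood at 425, 539, 1909 and 1215 CPM, 4.49 and 2.26 times higher in Ccr2-/- at days 3 and 5 (log2 fold change 1.67, SE 0.34, edgeR adjusted p = 0.0015, 0.17 in marker-positive cells). It was read in 107 of 118 mast cells, and in other cells the genotypes overlapped (188 to 277 CPM). It was the only called gene among 9 tested inhibitory receptors and phosphatases, whose median was 0.08. The inhibitory IgG receptor Fcgr2b stood at 47.6, 56.6, 63.3 and 189 CPM and the allergin receptor Milr1 at 123, 215, 136 and 59.0 CPM, and neither passed (adjusted p = 1 for both).

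Among receptors, Mrgprb2 was lower in Ccr2-/- mast cells. It stood at 317 CPM at WT day 3, 719 at WT day 5, 69.9 at Ccr2-/- day 3 and 140 at Ccr2-/- day 5, 4.53 and 5.15 times higher in WT at days 3 and 5 (log2 fold change −2.27, SE 0.46, edgeR adjusted p = 0.0014). In marker-positive cells the log2 fold change was −2.23 (adjusted p = 0.13), and marker-poor members held 0% of the reads. Reads were found in 5 of 11 and 8 of 9 WT cells and in 10 of 57 and 11 of 41 Ccr2-/- cells. All other cells had at most 0.694 CPM. Its neighbour Mrgprb1 was also above in both WT pools (values above) without passing (log2 fold change −1.03, SE 0.29, adjusted p = 0.12), and of 10 tested MRGPR and other G protein-coupled receptors Mrgprb2 was the only one called. Adora3 stood at 204, 364, 469 and 397 CPM (adjusted p = 0.93).

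The IgE receptor and its signalling chain gave no call. Of 18 genes, all 18 were tested and 0 passed, with a median of −0.02. Over all 9212 genes tested, 0.369% passed, so 0 calls lie near that share and do not show that the genes were unchanged. The same holds for the other lists with 0 calls. Fcer1a stood at 1464, 1524, 997 and 2362 CPM, Ms4a2 at 1845, 1069, 1220 and 1020, and the shared γ chain Fcer1g at 1246, 1190, 1089 and 1228 CPM. The genotypes overlapped for all 3 chains. Of 13 tested genes for KIT and transcription factors 0 passed, with a median of −0.46. Of 10 tested granule proteases 0 passed (median −0.39), which is a description, since 4 of the 10 (Cma1, Tpsb2, Mcpt4 and Mcpt8) were used to choose the cells. Runx1, a transcription factor, stood at 37.4, 121, 303 and 244 CPM without overlap and did not pass (adjusted p = 0.24). Among 12 tested cytokine receptors 0 passed (median 0.63): the IL-33 receptor Il1rl1 stood at 602, 1013, 1236 and 1449 CPM (adjusted p = 0.70), and the common β chain Csf2rb at 1283, 768, 2244 and 1737 CPM (adjusted p = 0.17).

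Of 8 tested genes of lipid mediator synthesis, only Alox5 was called, and their median was 3.05. Alox5 (5-lipoxygenase, the first step to leukotrienes) stood at 0 in both WT pools, 67.5 CPM at Ccr2-/- day 3 and 175 at Ccr2-/- day 5, at least 6.62-fold and at least 21.7-fold higher, and its call was lost in 6 of 12 alternatives (edgeR adjusted p = 0.26 in marker-positive cells). It was read in 11 of 57 and 9 of 41 Ccr2-/- cells, with 59.4% of the day 5 reads in 1 cell. The prostaglandin D synthase gene Hpgds stood at 129, 207, 132 and 223 CPM (adjusted p = 1). Other genes of the list had few reads in WT, so their fold changes are poorly known: Ptgs1, for example, stood at 6.81, 35.0, 85.0 and 106 CPM (adjusted p = 0.86). Of 10 tested genes of proteoglycan and heparin synthesis and of 12 tested genes of exocytosis, 0 passed.

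For the called genes Il1b, Cxcl2, Ccl3, Ccl4 and S100a9, all other cells of the pools moved the same way. Il1b stood at 13.6, 18.9, 336 and 458 CPM (log2 fold change 4.60, SE 0.65, edgeR adjusted p = 1.2e-07, 0.055 in marker-positive cells), and at 335, 326, 653 and 1510 CPM in all other cells. The neutrophil-attracting Cxcl2 stood at 44.2, 48.5, 176 and 1716 CPM (edgeR adjusted p = 5.4e-08, 0.26 in marker-positive cells) and at 994, 1276, 1511 and 2702 CPM elsewhere. Ccl3 stood at 3.40, 45.8, 75.7 and 563 CPM and Ccl4 at 34.0, 10.8, 103 and 374 CPM (adjusted p of 0.00022 and 0.035 by edgeR, 0.11 and 0.91 in marker-positive cells). At Ccr2-/- day 5 a single cell held 74.1% of Ccl3 and 88.8% of Ccl4 reads. The neutrophil gene S100a9 passed too, at 27.2, 8.08, 100.9 and 334 CPM (adjusted p = 0.034, 0.72 in marker-positive cells).

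Neutrophil markers were higher in the same pools. Over a list of 7 (S100a8, S100a9, Retnlg, Csf3r, Cxcr2, Ly6g and Mmp9) the summed level in mast cells was 44.2, 26.9, 238 and 604 CPM in the 4 pools, and 538, 152, 1208 and 2821 CPM in all other cells. Of the 7, 5 were tested and 1 was called, and Ly6g, the defining marker, had 0 reads. The part of free RNA or attached neutrophils in these values was not tested. Of 9 tested cytokines Il1b was the only call, and of 8 tested chemokines Ccl3, Ccl4 and Cxcl2. The monocyte-attracting ligands of CCR2 did not pass: Ccl7 stood at 4363, 5066, 6459 and 3521 CPM and Ccl2 at 1096, 1309, 1523 and 1441 CPM (adjusted p = 1 for both). Il6 stood at 17.0, 509, 830 and 280 CPM, Il13 at 0, 86.2, 161 and 52.3, Il4 at 180, 170, 200 and 48.4 and Tnf at 174, 191, 121 and 117 CPM, none of them past the test.

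Other named genes higher in Ccr2-/- came with limits of their own. AW112010, Cd52, Gzma and Ccl5, all known from lymphocytes, had 98.9%, 92.6%, 99.4% and 97.0% of their mast cell reads in the marker-poor members and were not tested without them. Gzma stood at 3.40, 5.39, 244 and 2172 CPM over all members, but at 3.59, 5.39, 4.36 and 10.1 CPM in marker-positive mast cells. Icos, a costimulatory receptor known from T cells, was different. It stood at 3.40, 0, 185 and 155 CPM. Both WT values lay below the floors of 10.2 and 8.08 CPM, so no p is given for Icos as support. Marker-positive cells held nearly all of its reads, with 3.59, 0, 188 and 135 CPM. It was read in 20 of 57 and 13 of 41 Ccr2-/- cells. In all other cells Icos stood at 10.2 to 16.5 CPM and moved the same way without overlap. Glipr2 stood at 3.40, 21.5, 216 and 175 CPM (edgeR adjusted p = 0.0091, 0.45 in marker-positive cells).

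The metallothionein gene Mt2, named after its values were seen because it passed in marker-positive cells too, stood at 374, 99.7, 1331 and 852 CPM (log2 fold change 2.45, SE 0.39, edgeR adjusted p = 4.5e-06, 0.046 in marker-positive cells). Other cells moved the same way, at 2861, 1910, 4835 and 4109 CPM. Of all 34 called genes, 5 had the majority of their reads in 1 cell (Fabp4, Ccl5, Ccl3, Ccl4 and, named after its values were seen, Timp1). In the other cells of the pools, 17 of the 34 moved the same way without overlap. The share of all genes tested that did so was not counted, so the 17 are a description only. The part of free RNA from other cells in those 17 was not tested.

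The 9 genes lower in Ccr2-/- passed over all members, and none of them in marker-positive cells alone (edgeR adjusted p of 0.13 to 0.94). Their folds there could be close to those over all members: Tsc22d1 stood at a log2 fold change of −3.58 and Apoe at −1.76, and marker-poor members held 0% and 0.292% of their reads. Slc29a1, an equilibrative nucleoside transporter, stood at 1355, 838, 309 and 406 CPM (log2 fold change −1.59, SE 0.36, adjusted p = 0.0091 by edgeR). Pakap, an anchor protein for protein kinase A, stood at 830, 1072, 274 and 366 CPM (log2 fold change −1.57, SE 0.37, adjusted p = 0.012 by edgeR). In all other cells neither gene was lower in both Ccr2-/- pools, with 55.6 to 72.9 CPM for Slc29a1 and 23.2 to 50.9 CPM for Pakap. The transcriptional regulator Tsc22d1 stood at 895, 873, 233 and 20.04 CPM and the Notch target Hes1 at 524, 207, 46.6 and 67.4 CPM (edgeR adjusted p of 7.7e-08 and 0.0073), and other cells moved the same way for both. Mfge8, which bridges phagocytes to dying cells, stood at 197, 523, 65.6 and 78.0 CPM and the pantothenate kinase gene Pank1 at 204, 199, 15.9 and 36.7 CPM (edgeR adjusted p of 0.034 and 0.046).

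Both remaining genes had direct limits. Apoe, an apolipoprotein made by macrophages, stood at 885, 1145, 257 and 322 CPM (edgeR adjusted p = 0.0015) and moved the same way in all other cells, at 1391, 3753, 706 and 560 CPM. The fatty acid-binding protein gene Fabp4 stood at 13.6, 1966, 13.6 and 3.34 CPM, and 1 cell held 99.9% of the WT day 5 reads (edgeR adjusted p = 0.00022, 0.94 in marker-positive cells). The summed level of 9 macrophage markers (Lyz2, Adgre1, Csf1r, C1qa, C1qb, Mrc1, Cd68, Ly6c2 and Ms4a7) was 81.7, 178, 114 and 74.6 CPM, against 3866, 4792, 828 and 791 CPM in all other cells, and their part in the Apoe values was not tested.

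**Figure D4:**
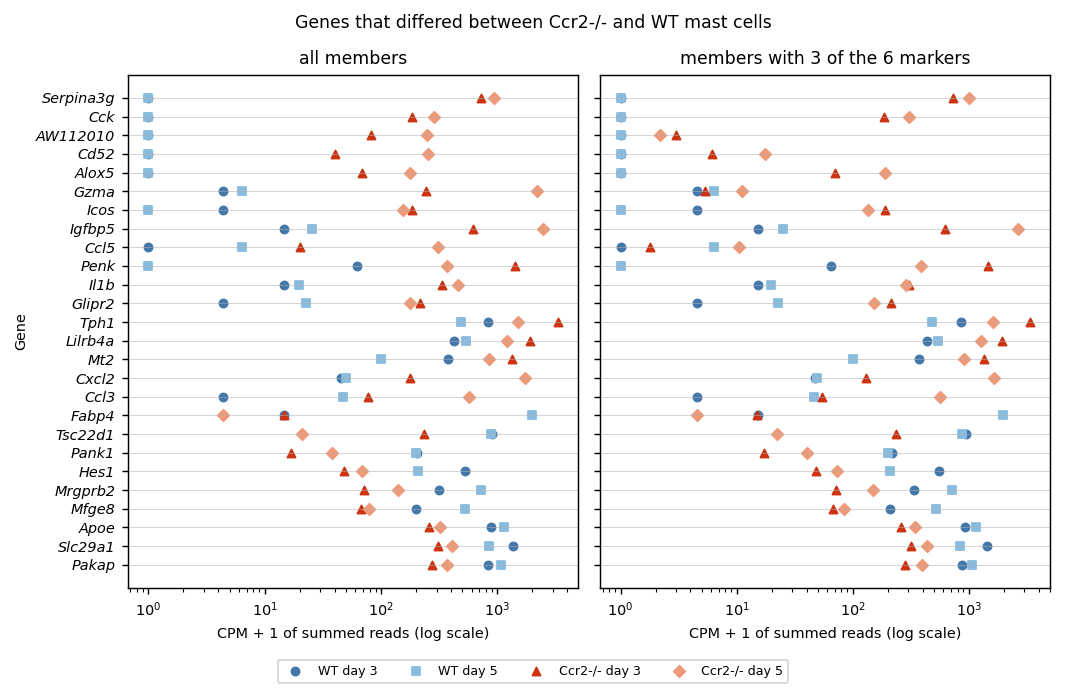
CPM + 1 of summed mast cell reads (x axis, log scale) in the 4 pools for the named genes that passed the genotype test over all members (rows), with all members on the left and marker-positive mast cells on the right. The Ccr2-/- points of AW112010, Cd52, Gzma and Ccl5 move to the left once marker-poor members are left out, and those of Serpina3g, Igfbp5, Penk, Cck and Tph1 stay in place.

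Several lists gave 0 calls for genotype, beside 0.369% of all genes tested, so these counts do not show that the genes were unchanged. These were 18 tested immediate early genes (median −0.37), 7 interferon-stimulated genes (0.90), 4 MHC class II genes (0.03), 11 cell division genes (0.18), 13 lysosome and acid pump genes (0.08) and 10 adhesion genes (−0.16). Fos, an immediate early gene, was high in every pool at 9472, 5581, 5078 and 4827 CPM, and was read in 97.1% of mast cells and 98.3% of fibroblasts at equal depth. The proliferation marker Mki67 was read in 2 of 11, 4 of 9, 5 of 57 and 11 of 41 mast cells, at 91.9, 97.0, 21.0 and 131 CPM, and no cell division gene passed for genotype or day. Markers of other cells gave 0 calls as well: fibroblast (7 tested, median 0.79), T or NK cell (2 tested, 0.81), monocyte or macrophage (3 tested, −0.37), endothelial cell or pericyte (2 tested, −1.04), keratinocyte (1 tested, 1.56) and basophil (5 tested, 0.75). Fibroblast markers summed to 1596, 1207, 3334 and 1638 CPM in mast cells and 33745 to 46047 CPM in all other cells.

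Between days, 3 of 9212 genes passed (0.0326%), with a median log2 fold change of 0.03 over all genes and 219 genes at an unadjusted p under 0.05. Ccl3 and Gzma (2 genes, 0.0217%) were higher at day 5. The log2 fold change was 3.12 for Ccl3 (SE 0.69, edgeR adjusted p = 0.040) and 2.90 for Gzma (SE 0.53). Both WT values of Gzma lay below the floor of 3 reads, so no p is given for it as support. Penk (1 gene, 0.0109%) was lower (−2.68, SE 0.49, edgeR adjusted p = 0.0014). For each of the 3 the pools of both days overlapped (values above), and Gzma was read almost entirely in marker-poor members. In marker-positive mast cells 0 genes passed between days, with 134 at an unadjusted p under 0.05.

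Set beside basophils, the other FcεRI-bearing cells of these lesions, mast cells carried other mediators. The values are CPM over the pools, with basophils from 3 pools, and are a description with no test, since proteases chose both sets. Tph1 stood at 2310 CPM in mast cells and 0 in basophils, Slc6a4 at 550 and 37.0, and Hdc at 2816 and 5683. The prostaglandin D synthase Hpgds stood at 170 and 1.68 CPM, whereas the cyclooxygenase Ptgs2 stood at 38.3 and 1591 and the 5-lipoxygenase activating protein Alox5ap at 32.8 and 1188. Among cytokines, Il4 stood at 143 and 2050 CPM, Il13 at 107 and 353, Il6 at 563 and 7944 and Areg at 2.58 and 1002.3.

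Chemokine levels also stood apart. Ccl7 stood at 5186 CPM in mast cells and 85.0 in basophils and Ccl2 at 1453 and 133, whereas Ccl3 stood at 243 and 25274, Ccl4 at 189 and 17100, Ccl9 at 34.3 and 5710 and Cxcl2 at 708 and 10025. Fibroblasts also carried Ccl7 (2032 CPM) and Ccl2 (2203 CPM), and at equal depth Ccl7 was read in 96.1% of mast cells, 26.7% of basophils and 73.3% of fibroblasts. FcεRI was common to both cell types, with Fcer1a at 1550 CPM in mast cells and 330 in basophils, Ms4a2 at 1174 and 831 and Fcer1g at 1155 and 1268. The common β chain Csf2rb stood at 1898 and 1850 CPM. The adhesion molecule Cadm1 stood at 257 and 6.31 CPM, and Mitf at 106 and 0. The C5a receptor C5ar1 stood at 1.99 and 140 CPM, and the adenosine receptors Adora2b at 3.18 and 244 and Adora3 at 420 and 109.

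**Figure D5:**
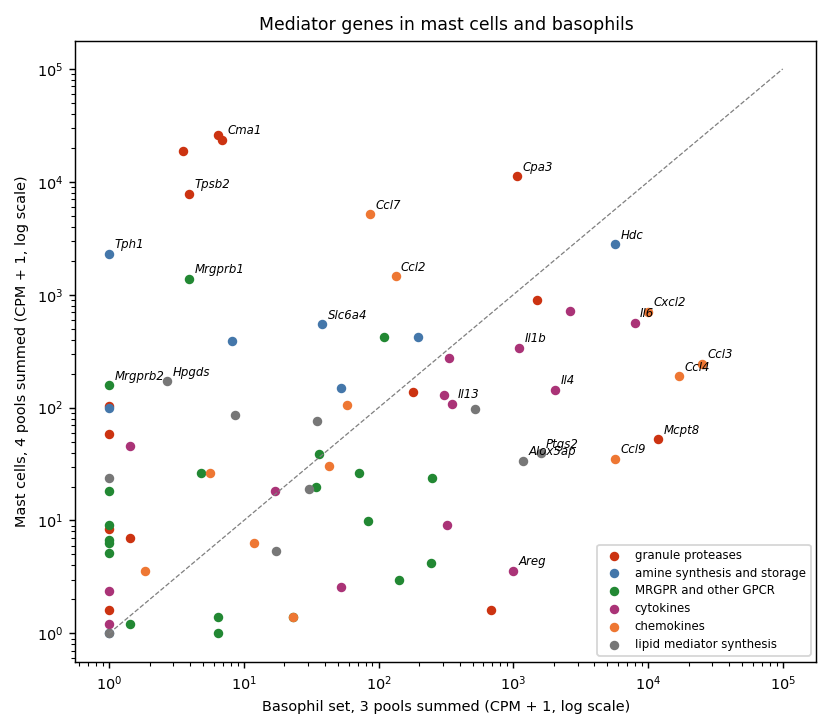
Each point is a gene of 6 mediator and receptor lists, by its CPM + 1 in the basophil set (x axis, 3 pools, log scale) and in mast cells (y axis, 4 pools, log scale), with the dashed line at equal levels. Proteases of the rule, Tph1, Mrgprb1, Ccl7 and Ccl2 lie above the line and Mcpt8, Ccl3, Ccl4, Ccl9, Il6 and Il4 below it.

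Mast cells also varied from cell to cell. Over the 115 marker-positive cells, the median and quartiles were 20755 CPM (14209 to 31425) for Cma1, 4647 (2122 to 11542) for Tpsb2 and 27032 CPM for Mcpt4. The median was 1437 CPM for Tph1, 2411 for Hdc and 0 for Mrgprb2, which was read in 33.9% of these cells. Across cells, Tpsb2 rose and fell with Mcpt4 (Spearman's rho 0.69), Cma1 with Cpa3 (0.65), Tph1 with Hdc (0.50) and Mrgprb1 with Mrgprb2 (0.45). Hdc and Mrgprb2 went opposite ways (−0.33), as did Cpa3 and Il6 (−0.38), and Fcer1a and Ms4a2 showed almost no relation (0.06). The rho with reads per cell was 0.08 for Hdc, 0.12 for Tph1, 0.03 for Mrgprb2, 0.25 for Cpa3 and 0.30 for Cma1. These are descriptions over 115 cells of 1 library that share their pools and read depths, with no test.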

How the data were processed

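Cells of 4 hashtagged pools (WT and Ccr2-/-, days 3 and 5) were sequenced as 1 cDNA and 1 hashtag library on BD Rhapsody with TAS-Seq. Per the labels and methods, the authors used Cutadapt and Bowtie2 (mouse RNA, GRCm38.p6), described a background correction, and deposited raw counts of reads per gene and barcode and per hashtag and barcode. These are not molecule counts, so a molecule copied by PCR is counted more than once, and a deeply amplified cell weighs more in a sum. The 9 other hashtag columns were not used. A barcode joined the pool of its top hashtag (1 read added, at least 10 reads, divided by the hashtag's total) if that was at least 3 times the next. Reads of members were summed per pool and tested with edgeR 4.0.16 (TMM, filterByExpr, quasi-likelihood, day + genotype, Benjamini-Hochberg over all genes) in R 4.3.3. Pools share 1 library, so p-values measure only the spread between 4 pools, which may be technical. Shares carry exact Clopper-Pearson 95% intervals and an exact permutation test. DESeq2 1.42.0 and limma 3.58.1 were alternatives. The fits were tested on simulated data. Named genes were the 6 markers, the genes of 26 lists, called genes without overlap and with reads in at least 5 cells (up to 12 per direction by fold change), and the 25 genes with the highest ratio to other cells. Members and lists were chosen with earlier results of these data known. The split at 3 markers was chosen after seeing the data. No doublet caller was run.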

Additional observations from a re-analysis of the deposited data

Results flagged for a closer look

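For 4 of the markers and named genes the value moved in opposite directions between days 3 and 5 in WT and in Ccr2-/- mast cells, with counting intervals that did not overlap within either genotype. Each entry is 1 pool against 1 pool, so the difference between genotypes was not tested. The log2 ratio of day 5 to day 3 was 0.25 in WT and −0.31 in Ccr2-/- mast cells for Mcpt4, whose level was also used to choose the cells. It was 7.17 and −2.02 for Fabp4, whose reads at WT day 5 came almost all from 1 cell. It was −1.34 and 0.53 for Hes1, and −0.69 and 0.40 for Slc29a1.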

How the results depend on the processing

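The higher share in Ccr2-/- pools kept its direction in every alternative run, with a difference of 0.782 to 1.68 points, and of 0.957 to 1.81 points with 1 pool left out. The 34 genotype genes became 20 with a hashtag ratio of 10, 4 with a protease limit of 10000 CPM, 18 in cells with a Kit or Cpa3 read and Mcpt8 up to 100 CPM and 6 in marker-positive cells, and ran from 0 to 21 with 1 pool left out. The split was 22 higher and 4 lower with library sizes only and 18 higher and 14 lower with DESeq2. The median log2 fold change of all genes was 0.39 with TMM, 0.40 with library sizes only and 1.32 with no filter on low counts. The 3 day genes became 0 with a hashtag ratio of 10, a mitochondrial limit of 10%, a protease limit of 10000 CPM, a Kit or Cpa3 read with Mcpt8 up to 100 CPM, marker-positive cells, limma, library sizes only and DESeq2 (131 to 446 genes had an unadjusted p under 0.05), 10 with no hashtag read added and no hashtag minimum, 7 without the deepest cell of each pool, 5 with cells thinned to 10000 reads and 14 with no filter. With 1 pool left out they ran from 7 to 44. The day value of Gzma (log2) then ran from −4.56, without Ccr2-/- day 5, to 8.42, and that of Penk from −12.68 to 1.76, without Ccr2-/- day 3. In the alternatives that kept all 4 pools, Tph1 was called in 11 of 12, Igfbp5 and Penk in 12, Mrgprb2 in 10, Lilrb4a in 9 and Fabp4 in 3 of 11. Fits with 1 pool left out are not in these counts, and most gene values fell short in them. Of 366 gene values outside the pools left out, 242 stayed on their side of the threshold, 123 fell short of it, 1 newly passed it and 0 turned. The 1 was Mrgprb1 with DESeq2 (DESeq2 adjusted p = 0.0497). Of 127 with 1 pool left out, 38 stayed, 87 fell short and 2 turned. The causes were not tested. The members with 3 markers and the pools left out for the share were added after seeing the data. The WT pools' 20 cells limit what could be seen. The 4 pools carry no replicate numbers, so nothing was paired beyond the day and genotype terms of the fit.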

Other observations

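The 12 members that carried no hashtag of 1 pool entered no comparison. Of these, 10 had reads of at least 3 markers and 2 had fewer, and 6 had reads of all 6.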
